A study of Mus musculus with 18 samples.

Results

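The 37 genes described here encode aminoacyl-tRNA synthetases of the mouse, the enzymes that join each amino acid to its tRNAs. They were chosen by name from the gene symbols of the liver RNA-seq table, which holds 15572 genes, and all 37 passed the filter on low counts, as did 14151 genes in all. The choice was made with earlier results of these data known. Enzymes of the cytosol account for 20 of them. Another 16 carry names ending in 2 and serve the mitochondrion, and Tarsl2, a threonyl-tRNA synthetase-like gene whose name also ends in 2, was kept apart because its annotation does not place it in the mitochondrion.

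All samples were livers of c57bl/6j mice, either wildtype (WT) or with a liver-specific knockout of Jmjd1c (JMJD1C-LKO), a gene for a histone demethylase. The knockout was made with a Cre driven by the albumin promoter, so that cells without albumin expression keep the gene, and the controls were WT littermates. Mice had been on chow for 6 to 8 weeks, and the methods give an age of 12 weeks. RNA-seq compared refed livers of both genotypes, taken after an overnight fast and a high carbohydrate meal. ATAC-seq was made from fasted WT, from refed WT and from refed JMJD1C-LKO livers, and ChIP-seq for a dimethylated lysine of histone H3 (H3K9me2) from fasted and refed WT livers. Each of these 7 groups had 2 samples. Refeeding lasted 6 h by the labels, whereas the general methods state 8 to 16 h. All samples carry the same treatment text, so fasted and refed were read from the letters F and R in the sample titles. The 2 RNA-seq samples of a group were pooled RNA, with no number of mice per pool given in the sources used here, whereas each ATAC-seq and ChIP-seq sample came from 1 mouse.

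Each synthetase recognises its amino acid and the matching tRNAs, and the charged tRNAs are then carried to the ribosome by an elongation factor. Cytosolic and mitochondrial protein synthesis use separate sets of enzymes, all encoded in the nucleus. The glycine and lysine enzymes are exceptions in which 1 gene serves both places, and Eprs joins the glutamate and proline activities in 1 protein. Several cytosolic synthetases are held together in the multisynthetase complex by the scaffold proteins Aimp1, Aimp2 and Eef1e1. Many cytosolic synthetase genes are known targets of ATF4, the transcription factor of the amino acid response, which binds C/EBP-ATF response elements.

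Promoter sequences are shown for 6 of the genes. They come from RefSeq's windows on GRCm38.p6, which matched 28 of the 37 genes. No window was matched for Cars, Hars, Hars2, Lars, Nars, Pars2, Rars, Vars and Wars. Aars (chr8:111033692-111033871, plus strand), Iars (chr13:49681980-49682159, plus strand), Tars (chr15:11399629-11399808, minus strand) and Yars (chr4:129189753-129189932, plus strand) are printed because they hold the element TGATGCAA. Farsb (chr1:78488868-78489047, minus strand) and Wars2 (chr3:99140940-99141119, plus strand) are printed because an ATAC-seq summit lay at their start in all 4 WT samples. Each sequence runs 5′ to 3′ on the strand of the gene, from 150 bases before the start to 30 bases from the start onward. Capitals mark TGATGNAA or its reverse complement, and the E-box CACGTG.
Aars: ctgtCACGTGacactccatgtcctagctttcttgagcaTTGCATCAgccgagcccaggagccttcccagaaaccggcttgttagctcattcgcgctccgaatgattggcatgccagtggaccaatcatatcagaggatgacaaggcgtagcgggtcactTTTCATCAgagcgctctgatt
Iars: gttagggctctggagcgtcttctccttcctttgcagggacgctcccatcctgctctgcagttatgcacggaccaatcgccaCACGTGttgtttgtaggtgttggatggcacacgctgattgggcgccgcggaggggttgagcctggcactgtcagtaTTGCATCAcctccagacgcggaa
Tars: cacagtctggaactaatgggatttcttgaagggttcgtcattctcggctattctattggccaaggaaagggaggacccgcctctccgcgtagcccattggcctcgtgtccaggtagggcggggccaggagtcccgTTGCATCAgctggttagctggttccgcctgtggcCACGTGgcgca
Yars: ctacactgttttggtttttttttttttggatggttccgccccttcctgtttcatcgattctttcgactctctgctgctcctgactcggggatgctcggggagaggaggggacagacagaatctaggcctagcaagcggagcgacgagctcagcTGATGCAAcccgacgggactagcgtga
Farsb: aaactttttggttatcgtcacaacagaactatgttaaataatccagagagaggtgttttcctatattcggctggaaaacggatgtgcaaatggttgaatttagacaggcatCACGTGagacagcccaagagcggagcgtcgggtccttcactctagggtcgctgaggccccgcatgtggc
Wars2: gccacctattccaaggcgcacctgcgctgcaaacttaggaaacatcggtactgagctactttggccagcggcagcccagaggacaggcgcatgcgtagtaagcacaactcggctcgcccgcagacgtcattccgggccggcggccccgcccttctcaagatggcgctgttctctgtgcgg

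With +1 as the start base, Yars held TGATGCAA at +4 to +11. On the opposite strand it lay at -112 to -105 in Aars, at +8 to +15 in Iars and at -15 to -8 in Tars. The full windows, 250 bases before to 50 bases after the start, were searched on both strands. TGATGNAA was found in 5 of 13 cytosolic genes with a window (these 4 and Gars), in 0 of 14 mitochondrial genes, and in 3.97% of all 32851 windows. The narrower TGATGCAA, whose matches are a subset of these, was found in 4 of the 13 and in 0.895% of all windows. CACGTG was found in 4 of the 13 cytosolic genes (Aars, Farsb, Iars and Tars), in 1 of the 14 mitochondrial genes (Ears2) and in 7.15% of all windows. The ETS motif CCGGAAGT was found in Farsa, Mars and Rars2 and in 3.89% of all windows. A gene counted if any of its windows held the motif, whereas the percentages are shares of single windows. These are matches of letters, not measured binding sites.

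Total counts were 51265128 to 54400509 per RNA-seq library. Jmjd1c, the targeted gene, was measured at 21.99 and 22.8 CPM (counts scaled to the size of the library, adjusted by TMM) in the WT libraries and at 20.04 and 20.49 CPM in the libraries labelled JMJD1C-LKO, a log2 fold change of -0.14 ± 0.08 (SE) that did not pass the threshold (edgeR quasi-likelihood test, adjusted p = 0.233). The counts cover the whole gene and not the deleted exons alone, so the labels were not checked by this value, and JMJD1C-LKO here means the libraries labelled so. Of the hepatocyte markers 1 of 7 (Tat) rose. Their sum, most of it Alb, was 111724 and 109106 CPM in WT and 110091 and 98988 CPM in JMJD1C-LKO libraries. All 6 macrophage markers rose, with sums of 212 and 222 CPM in WT and of 414 and 597 CPM in JMJD1C-LKO libraries, and so did 4 of 6 endothelial, 2 of 6 lymphocyte, 1 of 6 stellate, 1 of 5 blood and 1 of 2 tested pancreas markers, with 0 of 5 for cholangiocytes. Over all genes tested 14.6% rose, a share near that of the hepatocyte (14.3%) and stellate (16.7%) markers. Lyve1 and Pecam1 (endothelial), Cd3e (lymphocyte), Col1a1 (stellate) and Alas2 (blood) were not called with only the most abundant transcript of each gene.

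Cytosolic synthetase genes were lower in JMJD1C-LKO than in WT refed livers. Of the 20 genes 14 passed an adjusted p of 0.05 and fell and 0 rose, where 13.4% of all 14151 genes tested fell and 14.6% rose. All 20 had a negative log2 fold change, with a median of -0.44 and a range of -0.95 to -0.09, against a median of 0.006 over all genes tested. In 20 of 20 genes both JMJD1C-LKO libraries lay below both WT libraries, as in 33.8% of all genes tested. The summed level of the 20 genes was 1456 and 1450 CPM in the WT libraries and 1164 and 1019 CPM in the JMJD1C-LKO libraries, or 80.1% and 70.1% of the WT mean. JMJD1C-LKO library 2 was the lower of its pair in 19 of 20 genes and also had the higher sum of macrophage markers; their part in the result was not tested. The number of genes that fell was 9 without WT library 1, 5 without WT library 2, 18 without JMJD1C-LKO library 1 and 13 without JMJD1C-LKO library 2. In these fits 3.28%, 2.81%, 17.9% and 10.3% of all genes tested fell. In whole liver, fewer cells of a type and less RNA per cell cannot be told apart.

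**Figure D1:**
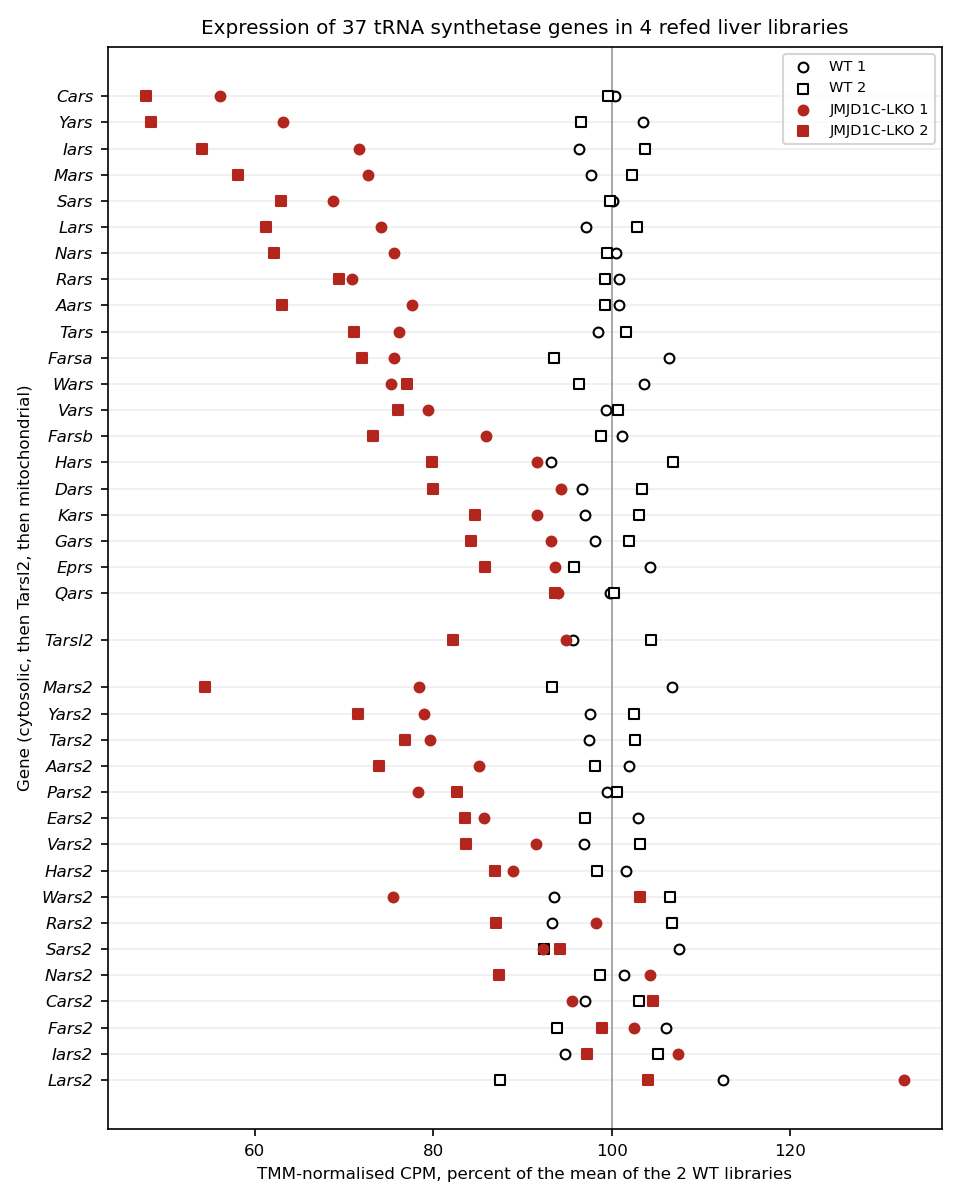
Level of each gene in the 4 RNA-seq libraries, as TMM-normalised CPM in percent of the mean of the 2 WT libraries (open symbols WT, filled symbols JMJD1C-LKO, circles replicate 1, squares replicate 2). In all 20 cytosolic genes the filled symbols lie to the left of the open ones, whereas in 8 of 16 mitochondrial genes they overlap.

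Cars, the cysteine enzyme, had the largest decrease of the 37 genes. It was measured at 39.8 and 39.5 CPM in WT and at 22.2 and 18.9 CPM in JMJD1C-LKO libraries, a log2 fold change of -0.95 ± 0.10 (SE, n = 2 libraries a group) with an edgeR adjusted p of 0.000222. Both JMJD1C-LKO values were far below the WT values, which differed little from each other. Yars, the tyrosine enzyme, was measured at 54.1 and 50.5 CPM in WT and at 33.0 and 25.3 CPM in JMJD1C-LKO (log2 fold change -0.84 ± 0.12, edgeR adjusted p = 0.00117). Sars, the serine enzyme, was measured at 90.1 and 89.8 CPM in WT and at 61.9 and 56.6 CPM in JMJD1C-LKO (-0.60 ± 0.08, edgeR adjusted p = 0.000867). Rars, the arginine enzyme, was measured at 43.3 and 42.6 CPM in WT and at 30.4 and 29.8 CPM in JMJD1C-LKO (-0.51 ± 0.08, edgeR adjusted p = 0.00169). These 4 genes kept their call when any 1 of the 4 libraries was left out.

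Iars, the isoleucine enzyme, was measured at 41.6 and 44.8 CPM in WT and at 31.0 and 23.4 CPM in JMJD1C-LKO (-0.67 ± 0.12, edgeR adjusted p = 0.00408). Mars, the methionine enzyme, was measured at 73.4 and 76.8 CPM in WT and at 54.6 and 43.6 CPM in JMJD1C-LKO (-0.61 ± 0.11, edgeR adjusted p = 0.00309). In both genes JMJD1C-LKO library 2 was clearly the lowest. Of the exonic bases of Mars 2.29% (68 bp) overlap Ddit3 on the opposite strand, and no source used here says whether counting used strand. Lars, the leucine enzyme, was measured at 36.9 and 39.1 CPM in WT and at 28.2 and 23.3 CPM in JMJD1C-LKO (-0.56 ± 0.10, edgeR adjusted p = 0.00383). Nars, the asparagine enzyme, was measured at 133 and 132 CPM in WT and at 100.3 and 82.5 CPM in JMJD1C-LKO (-0.54 ± 0.10, edgeR adjusted p = 0.00409). Tars, the threonine enzyme, was measured at 74.2 and 76.6 CPM in WT and at 57.4 and 53.6 CPM in JMJD1C-LKO (-0.44 ± 0.08, edgeR adjusted p = 0.00354). The groups did not overlap in any of these genes. Iars, Lars, Mars, Nars and Tars lost their call without WT library 2 alone.

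Aars, the alanine enzyme, is the most abundant cytosolic member and was measured at 272 and 268 CPM in WT and at 209 and 170.2 CPM in JMJD1C-LKO (-0.51 ± 0.10, edgeR adjusted p = 0.00634). The phenylalanine enzyme is built from the alpha subunit Farsa and the beta subunit Farsb. Farsa was measured at 28.1 and 24.7 CPM in WT and at 19.9 and 19.0 CPM in JMJD1C-LKO (-0.44 ± 0.09, edgeR adjusted p = 0.00834). Farsb was measured at 32.6 and 31.9 CPM in WT and at 27.7 and 23.6 CPM in JMJD1C-LKO (-0.33 ± 0.10, edgeR adjusted p = 0.029). Both subunits fell, and Farsb shares 265 exonic bp with Sgpp2 on the opposite strand. Vars, the valine enzyme, was measured at 47.8 and 48.4 CPM in WT and at 38.2 and 36.6 CPM in JMJD1C-LKO (-0.36 ± 0.08, edgeR adjusted p = 0.00831). Wars, the tryptophan enzyme, which interferon is known to induce, was measured at 23.5 and 21.8 CPM in WT and at 17.0 and 17.4 CPM in JMJD1C-LKO (-0.39 ± 0.09, edgeR adjusted p = 0.0105). Aars, Farsb, Vars and Wars lost their call without WT library 1 and without WT library 2, Farsa without WT library 1, and Farsb also without JMJD1C-LKO library 2 (-0.22). Farsb and Wars were not called with the most abundant transcript alone.

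The remaining 6 cytosolic genes did not pass the threshold. In each of them both JMJD1C-LKO values lay below both WT values, as in 33.8% of all genes tested. Hars, the histidine enzyme, was measured at 34.7 and 39.8 CPM in WT and at 34.1 and 29.8 CPM in JMJD1C-LKO (-0.22 ± 0.10). Dars, the aspartate enzyme, was measured at 55.6 and 59.5 CPM and at 54.3 and 46.0 CPM (-0.20 ± 0.10). In these genes JMJD1C-LKO library 1 was close to the lower WT library. Kars, the lysine enzyme, was measured at 62.9 and 66.9 CPM and at 59.5 and 54.9 CPM (-0.18 ± 0.08), and Gars, the glycine enzyme, at 48.2 and 50.1 CPM and at 45.8 and 41.4 CPM (-0.17 ± 0.08). Hars, Dars, Kars and Gars passed the threshold without JMJD1C-LKO library 1. Eprs was measured at 214 and 197 CPM and at 192 and 176 CPM (-0.16 ± 0.09), and Qars, the glutamine enzyme, at 49.9 and 50.2 CPM and at 47.0 and 46.8 CPM (-0.09 ± 0.08). The edgeR adjusted p of the 6 genes lay between 0.126 (Kars) and 0.396 (Qars). Kars and Gars, which serve the cytosol and the mitochondrion, were both among the genes not called, as was the bifunctional Eprs.

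Of the 16 mitochondrial synthetase genes 3 fell (18.8%, beside 13.4% of all genes tested) and 0 rose, with a median log2 fold change of -0.17 and a range of -0.59 to 0.24, and 12 were negative. Both JMJD1C-LKO libraries lay below both WT libraries in 8 genes and above them in 0, against 33.8% and 33.7% of all genes tested. The summed level of all 16 genes was 1540 and 1259 CPM in WT and 1755 and 1414 CPM in JMJD1C-LKO libraries, or 125.3% and 101.0% of the WT mean, and the groups overlapped. Lars2 outweighs the rest in this sum. Without it the summed level was 260 and 263 CPM in WT and 243 and 229 CPM in JMJD1C-LKO libraries, or 93.0% and 87.6% of the WT mean. The number that fell was 0 without WT library 1, 0 without WT library 2, 4 without JMJD1C-LKO library 1 and 1 without JMJD1C-LKO library 2, beside 3.28%, 2.81%, 17.9% and 10.3% of all genes tested. The ratio of the cytosolic sum to the mitochondrial sum without Lars2 was 5.602 and 5.511 in WT and 4.788 and 4.447 in JMJD1C-LKO libraries, and the groups did not overlap. No test of the difference between the classes was made.

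**Figure D2:**
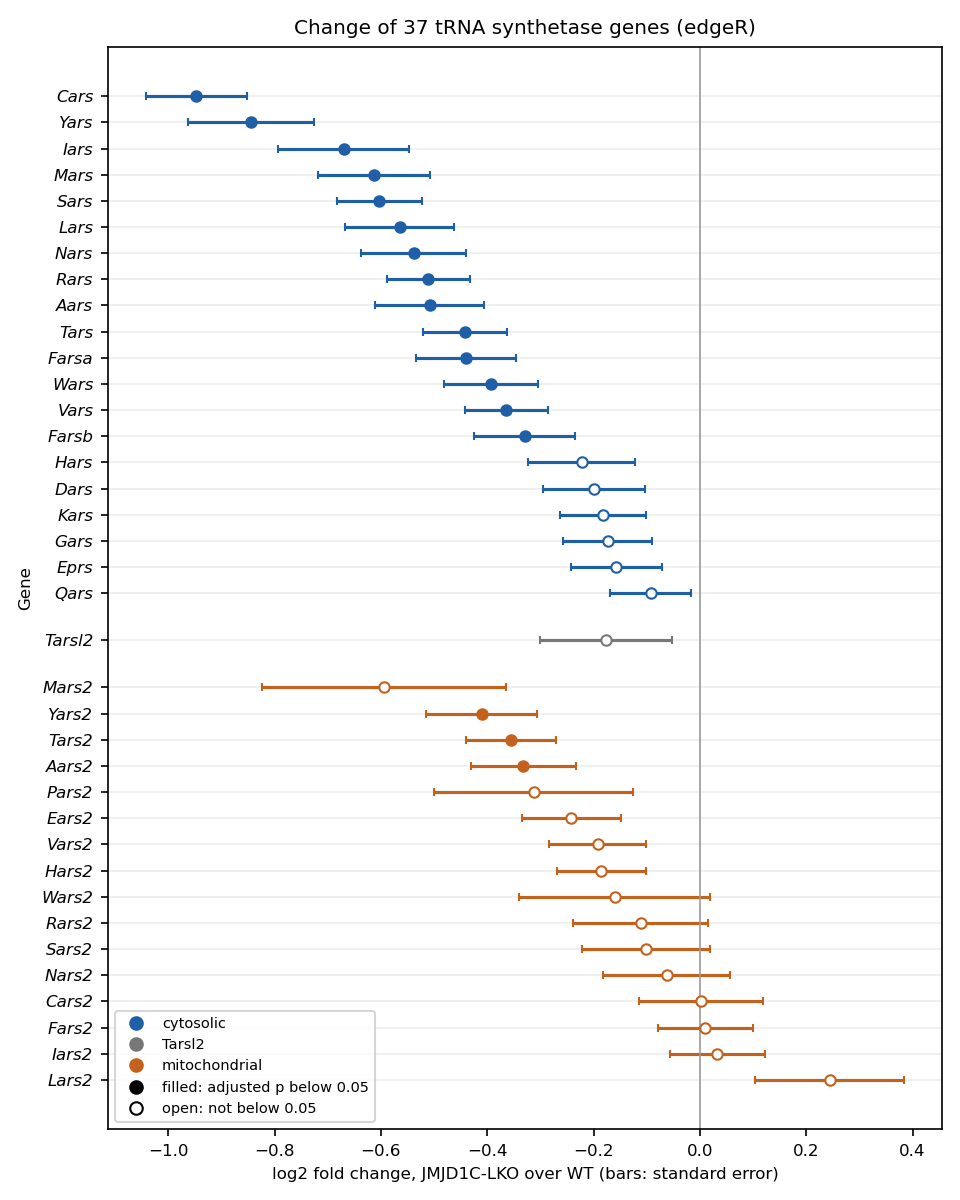
log2 fold change of each gene, JMJD1C-LKO over WT, with a standard error derived from the F statistic of the edgeR fit. Blue is cytosolic, grey Tarsl2 and orange mitochondrial, with filled symbols for an adjusted p below 0.05. Filled symbols mark 14 of 20 cytosolic and 3 of 16 mitochondrial genes, all to the left of 0.

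Yars2 was measured at 15.05 and 15.8 CPM in WT and at 12.2 and 11.0 CPM in JMJD1C-LKO libraries (-0.41 ± 0.10, edgeR adjusted p = 0.0171). Tars2 was measured at 25.9 and 27.3 CPM and at 21.2 and 20.4 CPM (-0.35 ± 0.08, edgeR adjusted p = 0.0131). Aars2 was measured at 21.2 and 20.4 CPM and at 17.7 and 15.4 CPM (-0.33 ± 0.10, edgeR adjusted p = 0.033). These 3 genes fell, and in each the groups did not overlap. All 3 lost their call without WT library 1 and without WT library 2, and Aars2 and Yars2 also without JMJD1C-LKO library 2. Aars2 missed the threshold with DESeq2 as well (adjusted p = 0.0643), and with the most abundant transcript alone neither Aars2 nor Tars2 (-0.57) was called.

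Mars2 had the most negative value of the mitochondrial genes but also the widest error, at 3.67 and 3.20 CPM in WT and 2.69 and 1.87 CPM in JMJD1C-LKO (-0.59 ± 0.23, edgeR adjusted p = 0.0811), and it passed the threshold without JMJD1C-LKO library 1. Pars2 was measured at 3.32 and 3.36 CPM and at 2.61 and 2.76 CPM (-0.31 ± 0.19), and Ears2, the glutamate enzyme, at 18.0 and 16.9 CPM and at 14.96 and 14.6 CPM (-0.24 ± 0.09, edgeR adjusted p = 0.0826). Vars2 was measured at 21.99 and 23.4 CPM and at 20.8 and 19.0 CPM (-0.19 ± 0.09). In all 4 genes the JMJD1C-LKO values were below the WT values without passing the test, an order seen in 33.8% of all genes tested. Hars2 was measured at 24.2 and 23.4 CPM and at 21.2 and 20.7 CPM (-0.19 ± 0.08). Its start lies 4 bp from that of Hars, on the opposite strand, and the log2 fold changes of these neighbours were close, at -0.19 and -0.22.

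In the other 8 mitochondrial genes the groups overlapped. Wars2 was measured at 5.787 and 6.595 CPM in WT and at 4.68 and 6.39 CPM in JMJD1C-LKO (-0.16 ± 0.18), and Rars2 at 9.57 and 10.9 CPM and at 10.1 and 8.93 CPM (-0.11 ± 0.13). Sars2 was measured at 11.67 and 10.03 CPM and at 10.02 and 10.22 CPM (-0.10 ± 0.12), and Nars2 at 12.04 and 11.71 CPM and at 12.4 and 10.4 CPM (-0.06 ± 0.12). None of these 4 showed a difference beyond the spread of its replicates. Cars2 was measured at 9.86 and 10.5 CPM and at 9.71 and 10.6 CPM (0.00 ± 0.12), Fars2 at 30.02 and 26.55 CPM and at 29.0 and 28.0 CPM (0.01 ± 0.09), and Iars2 at 47.6 and 52.9 CPM and at 54.0 and 48.9 CPM (0.03 ± 0.09). The sign of these 3 values turned with the scaling by library totals alone.

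Lars2, the mitochondrial leucine enzyme, stood apart in level. It was measured at 1280 and 996 CPM in WT and at 1511 and 1185 CPM in JMJD1C-LKO (0.24 ± 0.14, edgeR adjusted p = 0.225), and the groups overlapped. Without JMJD1C-LKO library 2 it passed the threshold as higher (log2 fold change 0.41, adjusted p = 0.0405). Its WT mean per transcript length was 497 TPM (counts per transcript length, scaled to the same total in each library), where the next 4 members were Aars at 124.8, Nars at 87.7, Eprs at 71.8 and Kars at 53.9. Its transcripts shared 0 bases in stretches of 25 with the mitochondrial genome or with the 5833 bp that the count table gives for the Rn45s ribosomal RNA locus. Only exact stretches counted, and ribosomal RNA sequence outside these 5833 bp was not searched. Lars2 also had a strong ATAC-seq summit near its 3′ end, described with the summits, whose part in its level was not tested. The lowest members on this scale were Mars2 at 2.04, Wars2 at 2.42 and Pars2 at 2.504. Tarsl2 was measured at 10.3 and 11.2 CPM in WT and at 10.2 and 8.84 CPM in JMJD1C-LKO (-0.18 ± 0.12, edgeR adjusted p = 0.32).

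Comparing the enzymes of 1 amino acid gives 17 pairs, in which Eprs and Fars2 each occur with 2 partners. In 15 pairs the mitochondrial gene had the higher log2 fold change. In 11 pairs the cytosolic gene alone fell, in 3 pairs (alanine, threonine and tyrosine) both fell, in 3 pairs neither did, and in 0 pairs the mitochondrial gene alone fell. The distance was widest for cysteine, with -0.95 for Cars and 0.00 for Cars2, and for leucine, with -0.56 for Lars and 0.24 for Lars2. For methionine the log2 fold changes were almost the same, at -0.61 and -0.59, although Mars2 did not pass the test. The reverse order was seen for Eprs (-0.16) against Ears2 (-0.24) and Pars2 (-0.31). The difference within a pair was not tested.

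**Figure D3:**
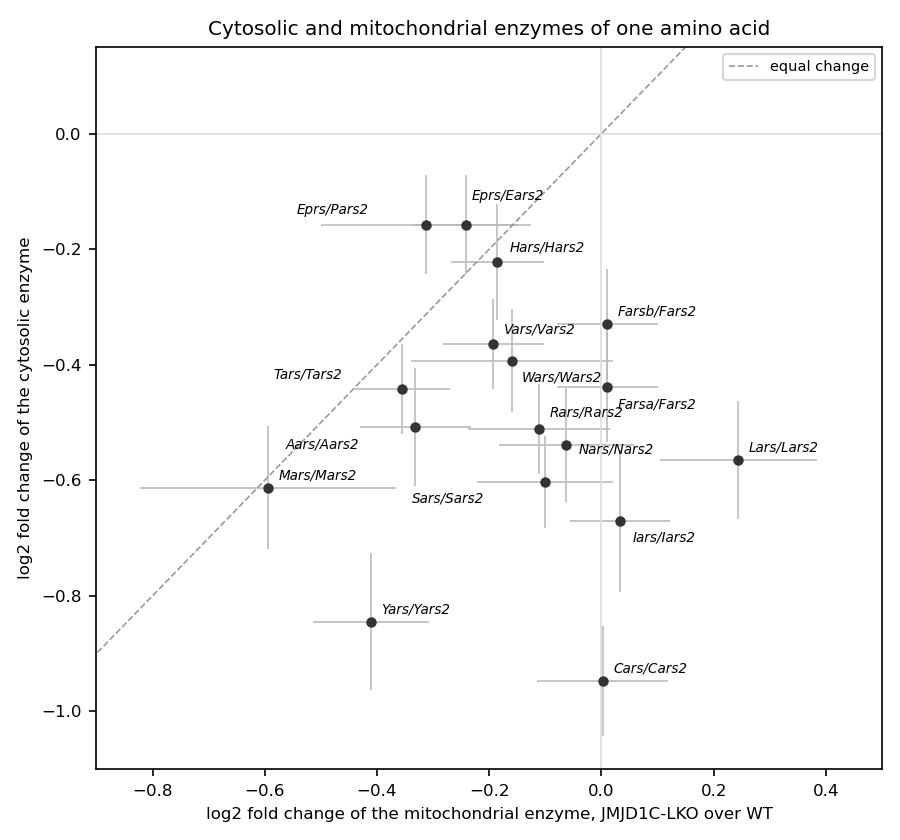
log2 fold change of the cytosolic enzyme (vertical) against that of the mitochondrial enzyme (horizontal) for the 17 pairs, with standard errors as bars and a dashed line of equal change. Points below the line, 15 of 17, have the lower value in the cytosolic gene.

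Genes next to the synthetases in the charging pathway were counted from lists, beside 13.4% of all genes tested that fell and 14.6% that rose. All 3 scaffold genes of the multisynthetase complex fell. Eef1e1 was measured at 11.98 and 11.83 CPM in WT and at 7.37 and 7.29 CPM in JMJD1C-LKO (-0.70 ± 0.11, edgeR adjusted p = 0.00238), Aimp2 at 13.9 and 14.2 CPM and at 10.02 and 9.381 CPM (-0.54 ± 0.11, edgeR adjusted p = 0.00574), and Aimp1 at 53.2 and 50.8 CPM and at 40.8 and 40.7 CPM (-0.35 ± 0.08, edgeR adjusted p = 0.00945). Aimp1 and Aimp2 lost their call without WT library 1 and without WT library 2. With the most abundant transcript alone, Aimp2 was at -0.0944 and was not called (edgeR adjusted p = 0.913). Of 14 other genes of tRNA charging and editing 3 fell and 0 rose, namely Ptrh2, a peptidyl-tRNA hydrolase, Qrsl1, a subunit of the mitochondrial glutamyl-tRNA amidotransferase, and Prorsd1 (log2 fold changes -0.41, -0.46 and -0.34). Of 6 factors that deliver charged tRNAs, 3 fell, Eef1g (-0.36), the mitochondrial Tsfm (-0.30) and Eef1d (-0.26), while Eef1a1, the carrier itself, was at -0.03 ± 0.10. With DESeq2, Qrsl1, Prorsd1 and Tsfm were not called, and these 3 genes, Ptrh2, Eef1g and Eef1d all lost their call without WT library 1 and without WT library 2. With the most abundant transcript alone, Ptrh2 (-0.27), Qrsl1 and Tsfm were not called, while Prorsd1 was at -0.96 and Eef1d at -0.40.

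Genes of the amino acid response moved in both directions. Of 26 tested genes 6 fell (23.1%) and 5 rose (19.2%), beside 13.4% and 14.6% of all genes tested. The median log2 fold change was -0.09. Atf4 itself was at 96.5 and 87.7 CPM in WT and 87.6 and 85.5 CPM in JMJD1C-LKO (-0.09 ± 0.08, edgeR adjusted p = 0.45). Fgf21, a liver hormone, fell by 2.45 on the log2 scale, from 30.3 and 27.2 CPM to 5.039 and 5.498 CPM (edgeR adjusted p = 4.78e-06). Psat1, of serine synthesis, fell by 1.95, from 1.505 and 1.956 CPM to 0.324 and 0.562 CPM. Asns, Nupr1 and Slc3a2 were also lower (log2 fold changes -1.03, -1.02 and -0.31). Aldh1l2 was lower too (-3.08), at 0.309 and 0.211 CPM in WT and at 0.020 and 0.036 CPM in JMJD1C-LKO. Ddit4, an inhibitor of mTORC1 signalling, rose from 4.05 and 4.22 CPM to 41.0 and 84.0 CPM (log2 fold change 3.92 ± 0.30, edgeR adjusted p = 5.81e-05), and Sesn2, another such inhibitor, by 1.06. Cebpb, Cth and Trib3 rose by 1.05, 0.94 and 0.64. With the most abundant transcript alone, Asns and Nupr1 were not called. Psat1 lost its call without WT library 2. Fits that leave out a library are not given for the other genes of this list, and DESeq2 results for none. Of 9 genes of the eIF2 kinases and their partners 0 fell and 0 rose by edgeR's test. Of 10 interferon response genes 7 rose and 0 fell, while Wars fell. Usp18 at 0.89 and Ifit3 at 0.78 had the lowest p, and Gbp2 and Gbp3 the highest log2 fold changes (1.008 and 1.005). Ifit1, Irf7 and Oasl2 were not called with the most abundant transcript alone.

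Chromatin at the gene starts was read from the deposited summits, the single positions of highest signal in each peak, each with the −log10 of its q-value. The lists differed in length. ATAC-seq gave 5220 and 7632 summits in the fasted WT samples and 5027 and 3119 in the refed WT samples. Only 1450 and 825 were listed for the refed JMJD1C-LKO samples. For H3K9me2 there were 7690 and 13456 summits with fasting and 1297 and 9929 with refeeding. H3K9me2 WT refed sample 1 stood apart, with a summit within 1000 bp of the start of 61 genes, against 9194 in WT refed sample 2. The lists hold no read counts, so depth is unknown. With 2 samples against 2 an exact two-sided test cannot go below p = 0.333, and no test was made.

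An ATAC-seq summit, a mark of open DNA, lay within 1000 bp of the start of 12 and 6 of the 37 genes in the WT fasted samples, beside 20.3% and 9.28% of all genes of the RNA-seq test. The WT refed samples had it at 6 and 7 genes (16.8% and 10.6%). The JMJD1C-LKO refed samples had it at 2 and 0 genes (6.76% and 1.39%). Both samples of a group held a summit at Farsb, Lars, Wars2 and Yars in WT fasted (4 genes, 7.35% of genes tested), at Farsb, Lars and Wars2 in WT refed (3 genes, 8.1%), and at 0 members in JMJD1C-LKO refed livers (0.588%). When each sample was limited to its 825 strongest summits, 0 members remained in both samples of any group. The WT fasted lists held 12 members in 5220 summits and 6 in 7632, and the WT refed lists 6 in 5027 and 7 in 3119. Over all annotated genes these lists reached 3147 and 1436 starts with fasting and 2602 and 1633 with refeeding. The JMJD1C-LKO refed lists reached 1062 and 232. The JMJD1C-LKO samples had both the shortest lists and the lowest counts, and the part of list length in this was not tested.

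**Figure D4:**
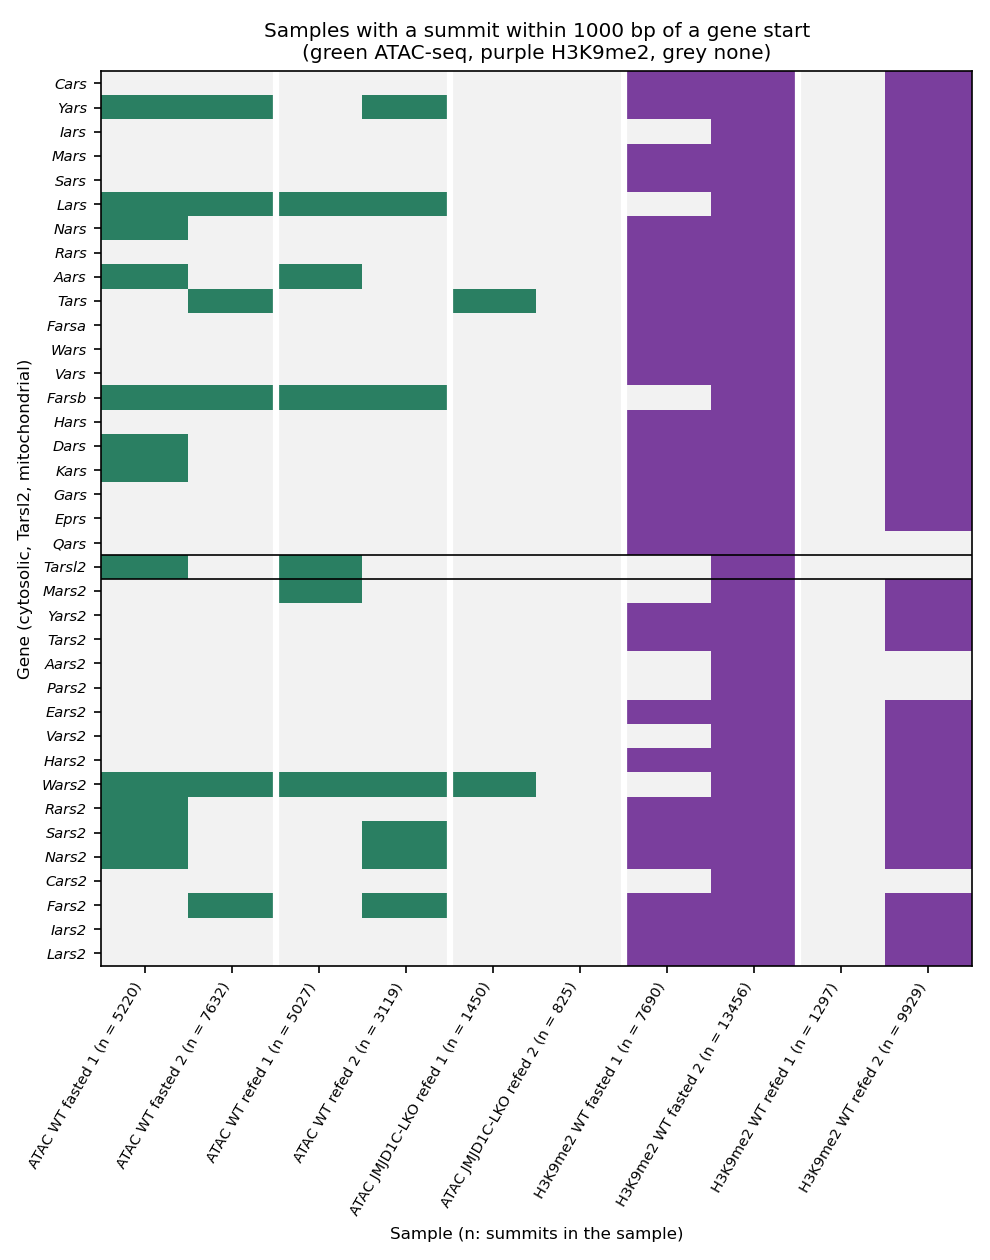
Samples (columns, with the number of summits in each) in which a summit lay within 1000 bp of the start of each gene (rows), green for ATAC-seq, purple for H3K9me2 and grey for none. Farsb, Lars and Wars2 are green in all 4 WT ATAC-seq samples, and the column of H3K9me2 WT refed sample 1 is empty.

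Positions of summits are distances from the start base in bp, negative upstream. At Farsb the nearest summit lay at -81 and -192 in WT fasted and at -45 and -88 in WT refed samples, and the E-box printed in capitals lies at -39 to -34. Its scores were 18.9 and 5.82 and then 8.53 and 11.1, ranks in the top 4.7% to 22.1% of each sample. At Wars2 the summits lay at 140 and 147 in WT fasted, at 184 and 241 in WT refed and at 96 in JMJD1C-LKO refed sample 1, where the summit stood at 88.4% of the ranked list. At Lars they lay at -64 and -214 in WT fasted and at 53 and -83 in WT refed samples. These 3 genes had summits on different sides of the start, upstream in Farsb, downstream in Wars2 and on both sides in Lars. At Yars they lay at -114 and 5 in WT fasted samples and at -98 in WT refed sample 2, and the one at 5 lay within the TGATGCAA element. Tars had a summit at -234 in WT fasted sample 2 and at 1 in JMJD1C-LKO refed sample 1. Aars had one at 20 in WT fasted sample 1 and at 51 in WT refed sample 1. Mars2, Dars, Kars, Nars and Rars2 had a summit in 1 sample each, and Fars2, Nars2, Sars2 and Tarsl2 in 2 samples each. The other 22 members had none within 1000 bp of a start in the 6 samples. Lars2 was one of these, but it had a strong ATAC-seq summit inside the gene in all 6 samples, 95062 to 95069 bp downstream of the start. It lay between 679 and 686 bp before the end of the gene (chr9:123461989-123461996, mm10), in an exon of all 3 transcripts, and ranked in the top 0.9% to 6.0% of each list. Iars2 had a weaker summit in an intron in 3 WT samples.

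H3K9me2 is a mark known from silent chromatin. In WT fasted livers a summit lay at the start of 27 and 37 of the 37 genes, beside 51.5% and 74.0% of all genes of the RNA-seq test, and 27 genes had it in both samples (51.2%). By class these were 17 of 20 cytosolic and 10 of 16 mitochondrial genes. In WT refed livers the count was 0 in sample 1 (0.135% of genes tested) and 32 in sample 2 (61.5%), so that 0 genes had a summit in both (0.0708%). Without that sample, 26 members had a summit in both fasted samples and in refed sample 2 (49.3% of genes tested), and Qars had it in both fasted samples and not in refed sample 2 (a pattern of 1.86%). Aars2, Cars2, Pars2 and Tarsl2 had a summit in WT fasted sample 2 alone.

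Most H3K9me2 summits lay a short way inside the genes. Over 96 pairs of a member and a sample the median position was 244 bp downstream of the start, 82 of them lay 100 to 400 bp downstream, and 0 lay within 100 bp of the start. All genes of the RNA-seq test had a median of 246 bp downstream, with 69.6% between 100 and 400 bp and 4.94% within 100 bp. The 33 ATAC-seq pairs of members had a median of 20 bp downstream, and 16 lay within 100 bp, while all genes of the RNA-seq test had a median of -109 bp and 31.2% within 100 bp. Since all 37 members had an H3K9me2 summit in WT fasted sample 2, the members with both marks in some sample are the 15 with an ATAC-seq summit (40.5%, beside 27.6% of all genes of the RNA-seq test). Neighbouring starts share such summits: Hars and Hars2 are 4 bp apart, Kars lies 5 bp from Terf2ip, Rars2 15 bp from Orc3, Wars 98 bp from Wdr25, Ears2 112 bp from Ubfd1 and Sars2 147 bp from Mrps12.

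**Figure D5:**
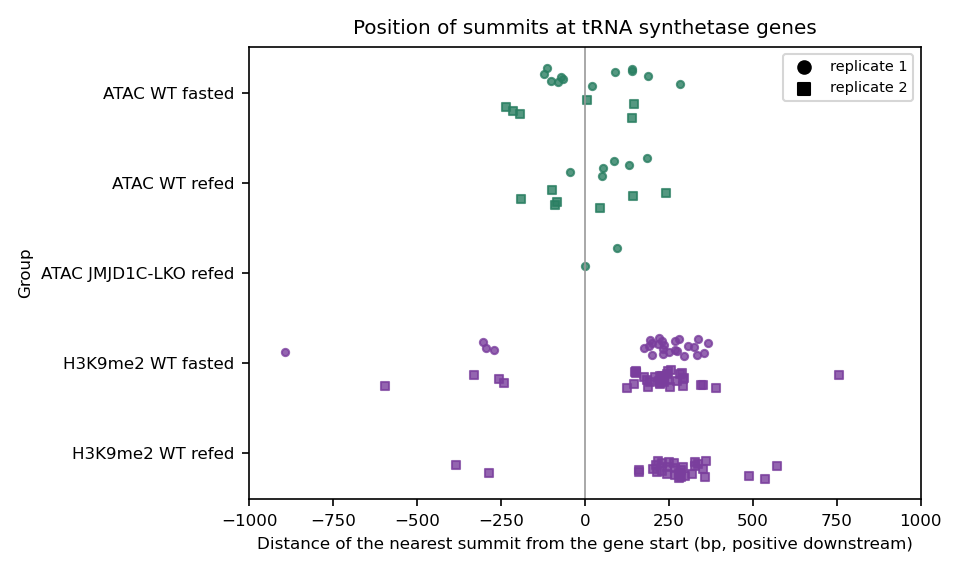
Distance of the nearest summit from the gene start in bp (positive downstream) for members with a summit within 1000 bp, by group, circles for replicate 1 and squares for replicate 2. ATAC-seq summits lie between -234 and 284 bp, and most H3K9me2 summits between 100 and 400 bp downstream.

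The RNA and chromatin readouts were set side by side for the WT refed livers. An ATAC-seq summit in either WT refed sample was present at 4 of the 17 genes that fell (Aars, Farsb, Lars and Yars) and at 6 of the 20 that were not called (Fars2, Mars2, Nars2, Sars2, Tarsl2 and Wars2), beside 19.3% of all genes of the RNA-seq test. Cars, with the largest decrease of the 37 genes, had no ATAC-seq summit in any sample and H3K9me2 summits 199 and 252 bp downstream in WT fasted and 280 bp downstream in WT refed sample 2. An H3K9me2 summit in WT refed sample 2 was present at 16 of the 17 genes that fell and at 16 of the 20 that were not called, beside 61.5% of all genes of the RNA-seq test. H3K9me2 in JMJD1C-LKO livers was not analysed here.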

How the data were processed

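The RNA-seq values deposited by the authors are unscaled estimated counts for RefSeq transcripts, 65.7% to 66.0% of them fractional; the submitters' processing notes name HISAT2, Partek and DESeq2, in no stated role. Counts were summed per gene, rounded and tested with edgeR 4.0.16 (R 4.3.3; TMM, filterByExpr, quasi-likelihood F test, no block, Benjamini-Hochberg adjustment over 14151 genes, threshold 0.05). On simulated counts 90 of 100 genes changed by 1 and 48 of 100 changed by 0.5 (log2) were called, with 5 false calls. The simulation gave all genes and both groups the same dispersion (0.0083), so its rates need not hold for the real counts. Replicates were not duplicates. P-values measure the spread between RNA pools. Standard errors are the size of the log2 fold change divided by the square root of the F statistic. For ATAC-seq and H3K9me2 the authors deposited MACS2 summits per sample on mm10 (q-value cutoff 0.05), each with the −log10 q-value. They were placed within 1000 bp of RefSeq starts (GRCm38.p6, 24823 of 24994 transcripts matched). Input libraries and a table of the authors' own comparison (p-value, fold change) were not used. Members and lists were chosen with earlier results of these data known. Named genes were members past the threshold, their counterparts, the 5 most abundant per length and those with a summit in both samples of a group. Up to 6 genes of each other list were named by p. The remaining members and the other called genes of the amino acid response were given for completeness. Alternatives were DESeq2 1.42.0, RLE scaling, library totals, no filter, a replicate block, the most abundant transcript, leaving out each library, and for summits windows of 500 and 2000 bp, a score of at least 5, 1 sample sufficing and equal list lengths.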

Additional observations from a re-analysis of the deposited data

How the results depend on the processing

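Of 222 values of single members under the alternatives that keep all 4 RNA-seq libraries, 212 kept their direction and their side of the threshold. The 14 cytosolic genes that fell were the same 14 genes under DESeq2, RLE scaling, library totals, no filter and the replicate block, and with the most abundant transcript alone 12 of them (without Farsb and Wars). Aars2 lost its call under DESeq2. With the most abundant transcript alone 1 mitochondrial gene fell instead of 3. With library totals the mitochondrial median was -0.21, and the log2 fold changes of Cars2, Fars2 and Iars2 turned to -0.0339, -0.0273 and -0.0069, while without the filter Cars2 was at -0.0039. The causes were not tested. Replicate numbers did not pair the samples (correlation of deviations -0.017). With a replicate block the number of cytosolic genes that fell was 14, and Mars2 passed the threshold at a log2 fold change of -0.61 (adjusted p = 0.0476).

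Leaving out 1 library gave 5 to 18 cytosolic and 0 to 4 mitochondrial genes that fell, 0 to 1 mitochondrial gene that rose, a cytosolic median of -0.49 to -0.40 and a mitochondrial median of -0.21 to -0.15. The sign turned within the range for Cars2 (-0.065 to 0.0584), Fars2 (-0.0796 to 0.0987), Iars2 (-0.0476 to 0.1055), Nars2 (-0.2011 to 0.0609), Sars2 (-0.2103 to 0.0102) and Wars2 (-0.4051 to 0.0379). Over all genes tested, 1892 fell and 2066 rose, against 408 to 2590 and 660 to 2590 when 1 library was left out and 1063 and 1263 with the most abundant transcript alone. A single library left in a group was assumed to vary like the other group.

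Members with ATAC-seq summits in WT fasted livers numbered 1 with a score of at least 5, 14 where 1 sample sufficed, 0 with the 825 strongest summits of each sample and 6 to 12 in single samples. In WT refed livers they numbered 10 where 1 sample sufficed, 0 with the strongest summits and 6 to 7 in single samples, and in JMJD1C-LKO livers 2 where 1 sample sufficed and 0 to 2 in single samples. H3K9me2 counts were 1 with the 1297 strongest summits and 27 to 37 in single samples in WT fasted livers, and 32 where 1 sample sufficed and 0 to 32 in single samples in WT refed livers. Depth limits what summit lists show, since a missing summit is not a measured absence of signal.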
